A study of Homo sapiens with 14 samples.

Results

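Genes of the Notch pathway, 10 in number, were followed through the early steps of a midbrain dopamine neuron differentiation: the ligands DLL1, DLL3 and JAG1, the receptors NOTCH1 and NOTCH2, and the targets HES1, HES5, HEY1, HEY2 and NRARP. They were chosen by gene symbol, with earlier results of these data known. They are 10 of the 57445 gene entries of the count tables for undifferentiated and day 11 cells. All 10 passed the filter on low counts in those tables. The symbol JAG1 stood on a second entry as well, with at most 0.493 CPM (counts scaled by the total of all gene counts in the library) in any of these libraries, and that entry was not tested.

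The cells came from the human pluripotent stem cell line H9 (WA-09), an established line, at passages 35 to 55. The undifferentiated cells (hPSC) were grown on vitronectin in Essential 8 medium. All differentiating cultures received SHH C25II, LDN, SB431542, 0.7 µM CHIR99021 and 10 µM Rock inhibitor (Y-27632) from day 0 to day 3. CHIR99021, called CHIR below, inhibits the kinase GSK3 and so activates WNT signalling. From day 4 the 4 day 11 arms received CHIR at 0.7, 3, 5 or 7.5 µM, up to day 10 by the protocol and day 9 by the series text. LDN, SB431542 and SHH were withdrawn on day 7. On day 10 all arms moved to a medium with BDNF, ascorbic acid, GDNF, TGFβ3, dibutyryl cAMP and 3 µM CHIR, so the arms shared their last CHIR concentration. Cultures of the 7.5 µM arm were replated on days 11 and 16 in a medium that contained DAPT, an inhibitor of the γ-secretase that cuts Notch receptors, and were collected on days 16 and 30. Each of the 7 groups had 2 libraries of total RNA, 14 in all, and the labels do not say that they were separate cultures, so the p-values measure the spread between these libraries only.

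Notch signalling passes between touching cells. A ligand of the Delta or Jagged type on one cell pulls on a receptor of its neighbour, ADAM proteases and γ-secretase then cut the receptor, and its freed intracellular part joins the DNA-binding protein RBPJ and Mastermind-like proteins to switch on target genes. In neural progenitors the targets of the HES and HEY families are repressors that hold back proneural genes, which are drivers of neuronal differentiation, while cells that become neurons make Delta ligands and signal to the progenitors around them.

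Promoters of 7 of the 10 genes were found in the RefSeq table used here (GRCh38.p14), each from 250 bases before to 50 bases after the start of the gene. They were searched on both strands for TGGGAA, the core of the sequence that RBPJ binds. HES1, HES5 and HEY2 each held 2 copies, and JAG1, NOTCH1, NOTCH2 and NRARP held none in this window. Of all 35116 promoters in the table, 24.0% held at least 1 copy and 3.8% held 2 or more. The 3 promoters with copies are shown, since they belong to the targets whose levels differed most between hPSC and day 11 cells together with HEY1. They are written 5′ to 3′ on the strand of the gene, with the RBPJ core in capitals: HES1 at chr3:194135898-194136197 (plus strand), HES5 at chr1:2530214-2530513 (minus strand) and HEY2 at chr6:125749382-125749681 (plus strand).
HES1: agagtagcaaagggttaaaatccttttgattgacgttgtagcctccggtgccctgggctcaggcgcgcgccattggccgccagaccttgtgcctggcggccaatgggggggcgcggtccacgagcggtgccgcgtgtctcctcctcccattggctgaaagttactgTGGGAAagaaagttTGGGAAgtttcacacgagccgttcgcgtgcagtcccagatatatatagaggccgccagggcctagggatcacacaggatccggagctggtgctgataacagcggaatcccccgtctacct
HES5: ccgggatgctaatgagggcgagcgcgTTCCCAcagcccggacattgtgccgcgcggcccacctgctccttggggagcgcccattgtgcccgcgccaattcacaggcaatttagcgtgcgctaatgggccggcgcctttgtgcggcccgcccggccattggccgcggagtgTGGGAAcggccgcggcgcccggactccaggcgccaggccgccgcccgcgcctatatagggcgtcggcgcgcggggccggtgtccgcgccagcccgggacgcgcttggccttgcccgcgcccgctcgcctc
HEY2: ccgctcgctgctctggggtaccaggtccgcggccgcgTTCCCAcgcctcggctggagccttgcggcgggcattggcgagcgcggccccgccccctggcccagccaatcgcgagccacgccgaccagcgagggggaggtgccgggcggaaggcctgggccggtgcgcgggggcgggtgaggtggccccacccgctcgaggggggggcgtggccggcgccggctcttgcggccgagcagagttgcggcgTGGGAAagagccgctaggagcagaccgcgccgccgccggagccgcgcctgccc
In HES1 both copies read TGGGAA on the strand of the gene and begin at positions -84 and -70 from the start of the gene. In HES5 one begins at position -224 from the start and reads TGGGAA on the opposite strand, and the other at -80 on the strand of the gene. In HEY2 they begin at -213, on the opposite strand, and at -3. HES1 also held 4 matches to CACNAG, the N-box that HES proteins bind, against at least 1 in 38.0% of all promoters, and 4 matches to CACGNG, the class C E-box, against at least 1 in 30.5%. These motifs overlap where the letters read CACGAG, and 2 of the 4 matches in HES1 are shared. None of the 7 promoters held CTTTGA, the core that the TCF/LEF factors of WNT signalling bind, which stood in 12.9% of all promoters. A match is a description of these letters and no measurement of binding.

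The libraries of hPSC and day 11 cells each held between 20.52 and 44.76 M gene counts. The labelled cell types matched their markers: POU5F1 stood at 0.37 to 1.31 CPM in the day 11 libraries, NANOG was at 0 in 7 of those 8, and the 6 neural progenitor markers (SOX1, SOX2, NES, VIM, MSI1 and FABP7) summed to 6495 to 10090 CPM at day 11 and to 670 and 1066 CPM in hPSC. Over the hPSC and day 11 libraries VIM ranged from 59.94 to 8724 CPM and SOX2 from 132.3 to 443.5 CPM. Where VIM was highest it made up most of the neural progenitor sum. LIN28A, listed with the pluripotency markers, still stood at 1107 to 1781 CPM at day 11, beside 1348 and 1847 CPM in hPSC. Of 5 vascular endothelial markers, a cell type rich in Notch genes, the sum at day 11 was 6.64 to 43.5 CPM, and the defining marker CDH5 was at 0 in 4 of the 8 libraries. In hPSC the sum was 279.5 and 357.8 CPM, nearly all of it KDR, at 274.3 and 352.9 CPM.

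The day 11 libraries differed between replicate 1 and replicate 2 more than between doses, and the Notch genes took part. Same-numbered libraries carry 1 shared code in the sample descriptions, and their deviations from the arm means correlated across genes with r of 0.66 to 0.87 for the 6 pairs of arms, lowest for pairs with the 7.5 µM arm. At an adjusted p below 0.05 (edgeR's quasi-likelihood test with Benjamini-Hochberg adjustment over all genes tested), 6 of 10 Notch genes differed between the replicate numbers, where 55.6% of all 18709 genes tested did. JAG1, NOTCH2, HEY2 and NOTCH1 were higher in replicate 2, and HES1 and DLL3 were lower.

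JAG1, a membrane ligand, showed the widest gap. Its level in replicate 1 was 81.5 CPM at 0.7 µM, 141 at 3 µM, 92.5 at 5 µM and 94.0 at 7.5 µM, and in replicate 2 it was 508, 479, 417 and 163 CPM. Every replicate 2 library lay above every replicate 1 library, and the fitted log2 change of replicate 2 against replicate 1 was 1.63 ± 0.279 (SE; edgeR adjusted p = 0.00114). NOTCH2, a receptor of neural progenitors, moved by 1.45 ± 0.184 on the log2 scale (SE; edgeR adjusted p = 0.000457), from 71.7 to 170 CPM in replicate 1 to 278 to 426 CPM in replicate 2. NOTCH2 shares near-identical sequence with NOTCH2NL genes, so its counts are uncertain. HES1 went the other way by -0.88 ± 0.160 (SE; edgeR adjusted p = 0.00147), with 119 to 178 CPM in replicate 1 and 80.2 to 99.8 CPM in replicate 2. HEY2 differed by 1.45 ± 0.367, NOTCH1 by 0.72 ± 0.255 and DLL3 by -0.77 ± 0.286 on the log2 scale (SE). For HEY1 (0.44 ± 0.271), HES5 (-0.35 ± 0.276), NRARP (0.25 ± 0.243) and DLL1 (0.22 ± 0.289) the difference did not pass the test. Without either 7.5 µM library DLL1 and HEY1 passed as well, where 63.3% and 63.2% of all genes did. DLL3 and NOTCH1 did not pass without any one of the 0.7, 3 or 5 µM libraries, where 37.6% to 42.7% did.

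The replicate difference went with exon length. The genes tested were put in 4 bins of equal size by exon length. In the shortest bin (up to 2371 bases) the median log2 change of replicate 2 against replicate 1 was -0.68, and it was -0.26, 0.18 and 0.65 in the longer bins. JAG1, NOTCH1 and NOTCH2 belong to the longest bin, at 9298, 10377 and 16807 bases, and HES1 at 2062 bases to the shortest. HEY2 at 2741 bases lay 1.45 above 0 in a bin whose median was below 0. The part of length, or of what goes with it, in the replicate difference of the Notch genes was not tested. Summed cell type markers moved with the replicate number too, in the same direction in every arm, except for the pluripotency markers. In replicates 1 and 2 the pluripotency markers summed to 1166 and 1891 CPM at 0.7 µM and to 1547 and 1849 at 3 µM. At 5 µM they summed to 1396 and 1600 CPM and at 7.5 µM to 1523 and 1423. Most of each of these sums was LIN28A. Lower in replicate 2 were the markers of neural progenitors (7088 to 10090 CPM in replicate 1, 6495 to 7730 in replicate 2) and of the midbrain floor plate (286.3 to 714.9 and 229.9 to 677.3). Higher in replicate 2 were those of neurons (143.5 to 362.4 and 340.3 to 567.5 CPM), neural crest (16.9 to 67.5 and 33.7 to 87.4) and mesenchyme (14.3 to 44.2 and 29.3 to 122.9). The 5 endothelial markers summed to 6.64 to 14.8 CPM in replicate 1 and 15.4 to 43.5 CPM in replicate 2, with KDR at 0.113 to 0.481 and 5.11 to 34.3 CPM, while VWF was lower in replicate 2 in 3 of the 4 arms and CDH5 was at most 0.125 CPM in any library. The part of these markers in the difference was not tested. The replicate number is therefore given as a block beside each dose result.

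**Figure D1:**
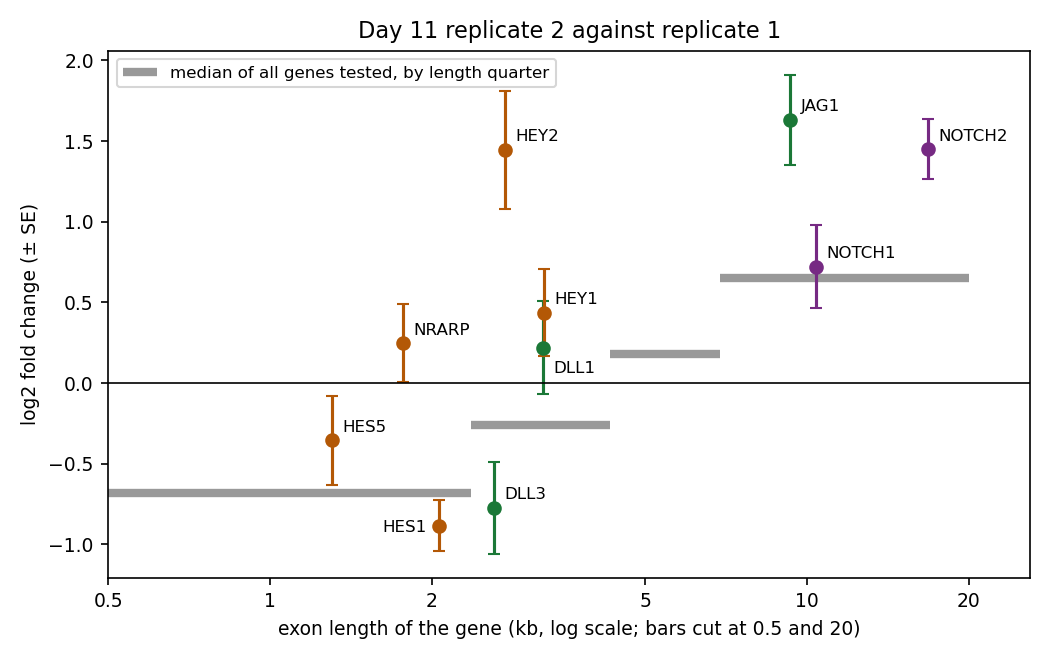
Fitted log2 fold change of day 11 replicate 2 against replicate 1 (y axis, ± SE) against the exon length of the gene (x axis, kb, log scale) for the 10 Notch genes, coloured as ligands (green), receptors (purple) and targets (orange). Grey bars give the median of all genes tested in each bin of length, from -0.68 in the shortest to 0.65 in the longest. JAG1 and NOTCH2 lie above the bar of their bin and HES1 below its bar.

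Between hPSC and day 11, targets of the pathway moved in both directions. HES1, HEY1 and HES5 rose, and so did the ligand DLL1. HEY2 and NRARP fell, in the 0.7 µM arm. The question this comparison answers is how the pathway stood before and after neural induction. At 0.7 µM 6 of 10 Notch genes passed against hPSC, 4 higher and 2 lower, where 11.4% of 19672 genes tested passed. At 7.5 µM 4 passed, all higher, where 10.1% of all genes passed. The median log2 change of the 10 was 1.39 at 0.7 µM and 0.58 at 7.5 µM, and that of all genes tested was 0.04 and 0.05. In CPM, 7 of the 10 genes had all 8 day 11 libraries on one side of both hPSC libraries, 4 above and 3 below, and 37.9% of all genes tested did. In bulk RNA, fewer cells with a transcript and less transcript per cell cannot be told apart.

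HES1, the repressor that keeps neural progenitors from differentiating, stood at 17.2 and 13.4 CPM in hPSC. At day 11 it was at 178 and 99.8 CPM with 0.7 µM CHIR, 119 and 80.2 with 3 µM, 124 and 85.4 with 5 µM, and 150 and 88.8 with 7.5 µM (replicates 1 and 2). All 8 day 11 libraries lay above both hPSC libraries. The log2 fold change against hPSC was 3.36 ± 0.576 at 0.7 µM (SE; edgeR adjusted p = 0.0121) and 2.97 ± 0.566 at 7.5 µM (SE; edgeR adjusted p = 0.0175). HES5, a Notch target used as a marker of neural progenitors, had 2 counts and 0 counts in the hPSC libraries, or 0.062 and 0 CPM. In the arms of rising CHIR it was at 2.10 and 2.06, 2.21 and 2.82, 4.04 and 4.26, and 4.87 and 2.52 CPM. With 135 counts against 2, the summed ratio of the 0.7 µM arm to hPSC was 59.3 (95% interval 16.1 to 495, counting error only), and at 7.5 µM it was 107 (29.3 to 887). HES5 passed in both comparisons with edgeR, at adjusted p = 0.00661 and 0.00477.

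HEY1, a related repressor, was at 2.08 and 0.718 CPM in hPSC. At day 11 it stood at 11.1 and 24.4, 5.85 and 14.3, 7.22 and 9.76, and 10.1 and 8.29 CPM in the arms of rising CHIR. All day 11 libraries were above hPSC, with log2 fold changes of 3.82 ± 0.668 at 0.7 µM (SE; edgeR adjusted p = 0.0127) and 2.71 ± 0.639 at 7.5 µM (SE; edgeR adjusted p = 0.0368). HEY2, its paralog and best known from the heart and vessels, did the reverse. It stood at 14.8 and 13.1 CPM in hPSC and at 0.244 to 2.37 CPM in the day 11 libraries. Its log2 fold change was -4.01 ± 0.896 at 0.7 µM (SE; edgeR adjusted p = 0.0285) and -3.07 ± 0.854 at 7.5 µM (SE; edgeR adjusted p = 0.0618). With the replicate block within day 11, the fit set the replicate 1 level of an arm, not its mean, against hPSC. That difference was -3.92 ± 0.414 at 7.5 µM (SE; edgeR adjusted p = 2.15e-05).

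NRARP, which is induced by Notch and in turn limits the receptor's activity, was at 27.2 and 20.5 CPM in hPSC. It was lower in every day 11 library: 4.04 and 6.97, 4.95 and 8.70, 6.16 and 9.20, and 14.5 and 11.7 CPM in the arms of rising CHIR. The log2 fold change was -1.95 ± 0.415 at 0.7 µM (SE; edgeR adjusted p = 0.0237) and -0.87 ± 0.403 at 7.5 µM (SE; edgeR adjusted p = 0.249). With the replicate block within day 11, the replicate 1 level at 7.5 µM differed from hPSC by -0.97 ± 0.321 (SE; edgeR adjusted p = 0.027). Of the targets, then, 3 stood above their hPSC level in all day 11 libraries and 2 stood below it.

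DLL1, the Delta ligand made by nascent neurons, stood at 11.3 and 7.62 CPM in hPSC. It was at 27.4 and 69.8 CPM with 0.7 µM CHIR, 68.8 and 89.1 with 3 µM, 52.9 and 86.8 with 5 µM and 63.2 and 38.7 with 7.5 µM. The arms overlapped among themselves, except that both 3 µM libraries lay above both 7.5 µM libraries, and none overlapped with hPSC. Its log2 fold change against hPSC was 2.52 ± 0.521 at 0.7 µM (SE; edgeR adjusted p = 0.0223) and 2.43 ± 0.519 at 7.5 µM (SE; edgeR adjusted p = 0.0266). DLL3, a divergent Delta that acts inside the cell and dampens signalling, was at 8.21 and 13.1 CPM in hPSC. In the day 11 libraries it lay between 2.32 and 6.33 CPM, below both hPSC libraries, with log2 changes of -1.14 ± 0.601 and -1.18 ± 0.600 (SE) that did not pass. With only the libraries compared in the fit it passed at 7.5 µM, at -1.17 ± 0.356 (SE; edgeR adjusted p = 0.0449).

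The receptors and JAG1 did not pass against hPSC. NOTCH1, the receptor most studied in neural development, was at 46.0 and 34.9 CPM in hPSC. At day 11 it was at 44.4 and 81.4, 50.02 and 106.4, 29.5 and 109, and 50.9 and 46.3 CPM. These ranges overlapped, and the log2 change was 0.80 ± 0.554 at 0.7 µM and 0.26 ± 0.551 at 7.5 µM (SE). NOTCH2 was at 138 and 174 CPM in hPSC. At day 11 its replicates 1 and 2 were at 164 and 426, 75.6 and 278, 71.7 and 326, and 170 and 387 CPM, on both sides of hPSC, with log2 changes of 1.07 ± 0.789 and 0.81 ± 0.785 (SE). JAG1 was at 105 and 96.7 CPM in hPSC, within its day 11 range, and its log2 changes were 1.70 ± 0.923 at 0.7 µM and 0.34 ± 0.899 at 7.5 µM (SE).

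**Figure D2:**
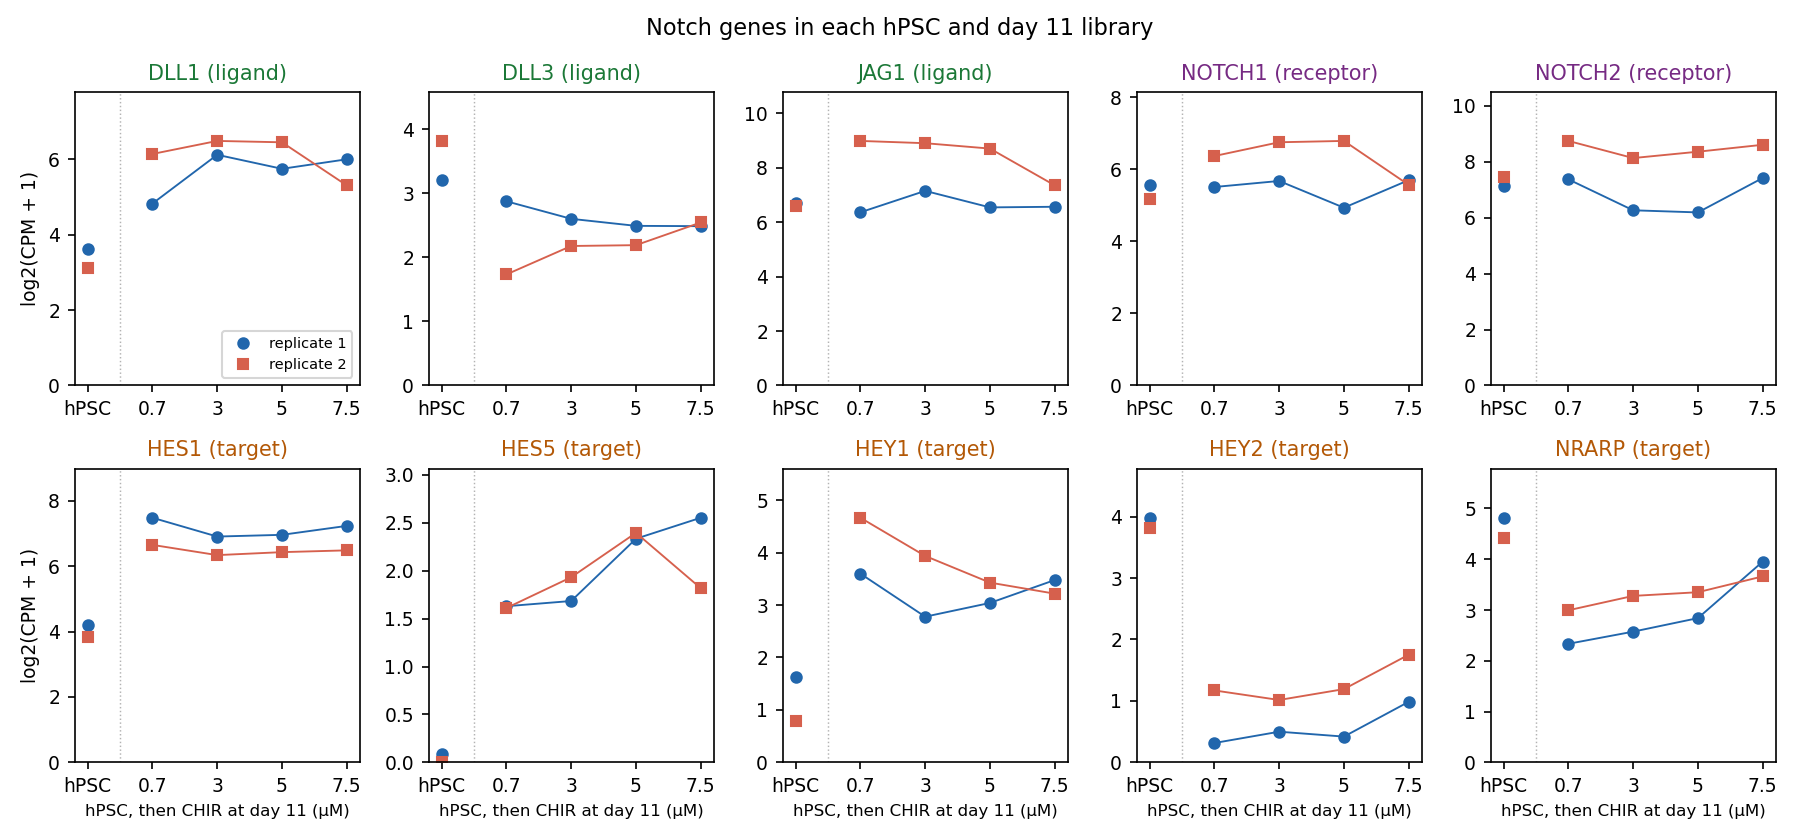
Level of each Notch gene as log2(CPM + 1) (y axis) in the hPSC libraries and in the day 11 libraries by CHIR concentration (x axis, µM, evenly spaced). Blue circles are replicate 1 and red squares replicate 2, and lines join day 11 libraries of the same number. HES1, HES5, HEY1 and DLL1 lie above hPSC in all day 11 libraries, and HEY2, NRARP and DLL3 below.

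Per kilobase of exon, the order of the Notch genes changed between the stages. In hPSC the highest group means were NRARP with 13.5 CPM per kb, JAG1 with 10.8, NOTCH2 with 9.29 and HES1 with 7.42, and HES5 was lowest at 0.0237. At day 11 HES1 had the highest mean of each arm, 48.4 to 67.4 CPM per kb, but the replicates differed: in replicate 2 JAG1 stood above HES1 at 0.7 µM (54.6 and 48.4 CPM per kb), 3 µM (51.5 and 38.9) and 5 µM (44.9 and 41.4). The means of JAG1 were 13.8 to 33.4, those of DLL1 15.1 to 24.5 and those of NOTCH2 10.5 to 17.5, and these 3 overlapped between arms and replicates. NOTCH1 had 4.68 to 7.54, NRARP 3.11 to 7.39, HEY1 2.63 to 5.49, HES5 1.59 to 3.18 and DLL3 1.56 to 1.80 CPM per kb. HEY2 was lowest in each arm with 0.262 to 0.611.

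The wider pathway list held 41 further genes: other ligands and receptors, sugar transferases, trafficking and protease genes, the nuclear complex and other HES and HEY genes. Against hPSC 4 of the 41 rose at 0.7 µM and 2 at 7.5 µM, and none fell. MFNG, the Manic fringe transferase that adds sugars to Notch receptors and so tunes their choice of ligand, stood at 4.24 and 4.99 CPM in hPSC. It was at 43.5 and 53.1 CPM with 0.7 µM CHIR and at 11.1 and 12.5 CPM with 7.5 µM. Its log2 fold change against hPSC was 3.55 ± 0.358 at 0.7 µM (SE; edgeR adjusted p = 0.00258) and 1.35 ± 0.331 at 7.5 µM (SE; edgeR adjusted p = 0.0404). HES4 rose by 4.28 ± 0.563 and 2.885 ± 0.536 on the log2 scale (SE). HES7, a target known from the segmentation clock, rose at 0.7 µM by 6.20 ± 0.817, and the Delta ligand DLL4 by 4.98 ± 1.32 with 0.585 and 9.74 CPM in its replicates. These counts are no higher than the shares of all genes given above. The replicate block within day 11 sets replicate 1 levels against hPSC, which is a different question. There the counts were 20 of 41 at 0.7 µM and 22 at 7.5 µM, where 56% and 46.7% of all genes passed.

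With the replicate block within day 11, 6 of 10 Notch genes passed against hPSC at 0.7 µM and 6 of 10 at 7.5 µM, where 56% and 46.7% of all genes passed. Those counts are for the replicate 1 level of each arm, and the counts without that block are for the arm means. The counts without that block rest on both hPSC libraries. With only the libraries compared in the fit, HES1 and HES5 passed at 0.7 µM, where 6.3% of all genes did, and 6 Notch genes passed at 7.5 µM, where 29.3% did. Without hPSC replicate 1 the count of the 10 Notch genes that passed at 0.7 µM was 1, and without replicate 2 it was 0, while the share of all genes fell from 11.4% to 1.27% and 0.557%. At 7.5 µM it was 1 without either hPSC library or either 7.5 µM library, where 1.21% to 1.98% of all genes passed, each of which leaves an arm with 1 library that is assumed to vary like the others. In each of those 7.5 µM cases HES1, HEY1 and DLL1 lost their calls and HES5 kept its own. HEY2 and NRARP at 0.7 µM did not pass without 0.7 µM replicate 1, nor DLL1 without replicate 2, nor HEY1 at 7.5 µM without either 5 µM library. Of the wider list none passed at 7.5 µM without either hPSC or either 7.5 µM library, and 2 did at 0.7 µM without hPSC replicate 2.

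**Figure D3:**
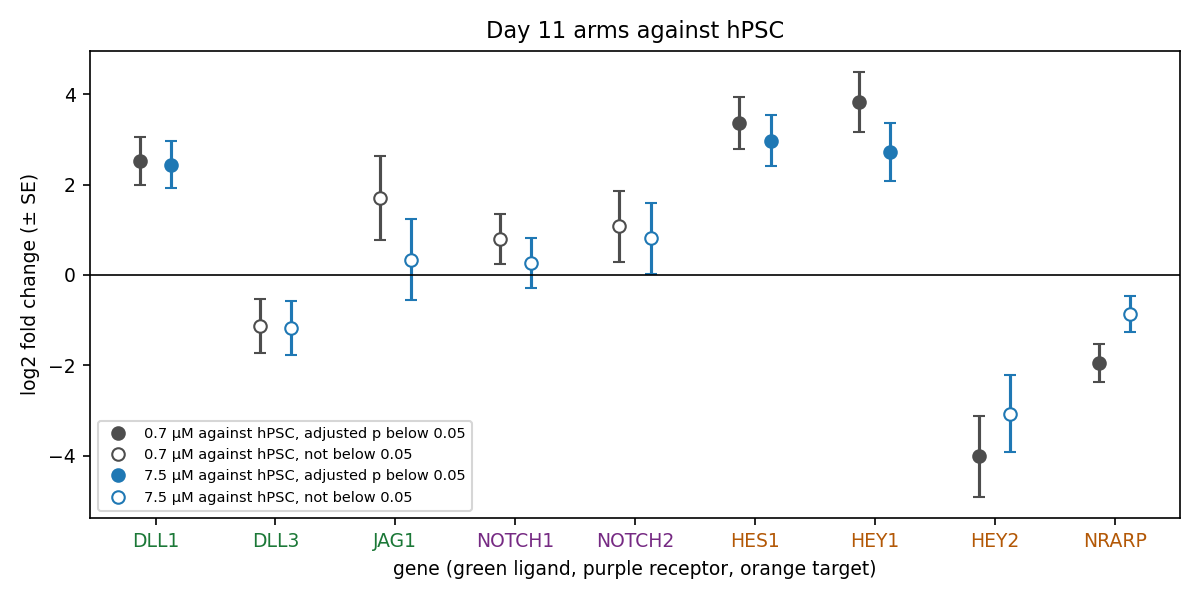
Fitted log2 fold change (y axis, ± SE) against hPSC of 9 Notch genes (x axis) in the 0.7 µM (grey) and 7.5 µM (blue) arms at day 11. HES5 is left out, as 1 hPSC library had no count. Filled points passed at an adjusted p below 0.05: DLL1, HES1 and HEY1 in both arms, and HEY2 and NRARP in the 0.7 µM arm.

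No Notch gene passed between CHIR concentrations at day 11, with or without the replicate block. The question here is whether the strength of the second WNT pulse went with a change in the pathway. In the slope over log2 concentration 0 of 10 passed, where 0.134% of all genes tested passed, and with the block 0 of 10 against 1.19%. For 3 µM against 0.7 µM the count was 0 of 10, against 0% of all genes without and 0.0214% with the block. For 5 µM it was 0 of 10, against 0% and 1.13%, for 7.5 µM 0 of 10, against 0% and 10.5%, and for 7.5 µM against 5 µM 0 of 10, against 0% and 6.53%. DESeq2 called none of them without the block either. At an unadjusted p below 0.05 edgeR found 2 in the slope, 1 for 7.5 µM against 0.7 µM and 0 in the other comparisons without the block. With the block it found 2 in the slope, 2 for 3 µM, 3 for 5 µM, 4 for 7.5 µM and 1 for 7.5 µM against 5 µM. Over all genes, 5.91% of slopes and 8.77% of the differences of 7.5 µM from 0.7 µM were below it without the block, and with the block 12% of slopes, 7.48%, 10.1% and 28.9% of the differences of 3, 5 and 7.5 µM from 0.7 µM, and 28.5% of those of 7.5 µM from 5 µM.

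NRARP came nearest to the threshold. Its level in CPM was higher at each step of CHIR within both replicate numbers. Both 7.5 µM libraries, at 14.5 and 11.7 CPM, lay above both 0.7 µM libraries, at 4.04 and 6.97. With the TMM scaling used for the tests, replicate 2 did not rise from 3 to 5 µM, with log2 ratios to 0.7 µM of 0.33 and 0.32. The log2 change of 7.5 µM against 0.7 µM was 1.122 ± 0.346 with the replicate block (SE; edgeR adjusted p = 0.0651) and 1.08 ± 0.450 without it (SE; edgeR adjusted p = 0.562). Within replicate 1 alone it was 1.66 and within replicate 2 alone 0.55. The slope was 0.28 ± 0.122 per doubling of CHIR (SE; edgeR adjusted p = 0.822), and 0.29 ± 0.104 with the block (adjusted p = 0.291).

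HEY1 went the other way. Both 7.5 µM libraries, at 10.1 and 8.29 CPM, were below both 0.7 µM libraries, at 11.1 and 24.4. The log2 change was -1.01 ± 0.382 with the replicate block (SE; edgeR adjusted p = 0.116) and -1.11 ± 0.529 without it (SE; edgeR adjusted p = 0.645), and it was -0.28 within replicate 1 and -1.73 within replicate 2. Its slope was -0.33 ± 0.126 per doubling (SE; edgeR adjusted p = 0.668), and -0.30 ± 0.103 with the block (adjusted p = 0.263). For 5 µM against 0.7 µM with the block HEY1 differed by -0.93 ± 0.381.

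The other targets did not pass either for 7.5 µM against 0.7 µM with the block. HEY2 differed by 1.102 ± 0.492 (SE; edgeR adjusted p = 0.169), with 1.51 within replicate 1 and 0.69 within replicate 2, between levels of at most 2.37 CPM. HES5 differed by 0.61 ± 0.390 (SE; adjusted p = 0.325), with 1.03 within replicate 1 and 0.10 within replicate 2. Its 5 µM libraries, at 4.04 and 4.26 CPM, stood above both 0.7 µM libraries, and that difference was 1.07 ± 0.390 (SE; adjusted p = 0.321). HES1 differed by -0.38 ± 0.225 (SE; adjusted p = 0.29), with -0.40 and -0.36 within the replicates. In CPM, HES5, NRARP and HEY1 had 7.5 µM and 0.7 µM libraries that did not overlap, which is 3 of 10, and 38.7% of all genes tested had none either.

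Ligands and receptors were uneven between the replicate numbers. JAG1 differed by -0.90 ± 0.388 for 7.5 µM against 0.7 µM with the block (SE; edgeR adjusted p = 0.157), made of 0.05 within replicate 1 and -1.83 within replicate 2. Against 5 µM it differed by -0.85 ± 0.382 (SE; adjusted p = 0.174). NOTCH1 differed by -0.41 ± 0.355, with 0.04 and -1.0 within the replicates, and DLL1 by -0.01 ± 0.410, with 1.05 and -1.04. DLL3 differed by 0.13 ± 0.401, with -0.60 and 0.84. NOTCH2 differed by -0.21 ± 0.254, and at 3 and 5 µM by -0.68 ± 0.255 and -0.70 ± 0.256 (SE; edgeR adjusted p = 0.576 and 0.322). For DLL1 the difference of 3 µM against 0.7 µM was 0.93 ± 0.404 (SE; adjusted p = 0.647). None of these values passed.

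With the block, other settings called some of these genes for 7.5 µM against 0.7 µM: DESeq2 called NRARP and HEY1 (2 of 10, and 16.1% of all genes), and edgeR without the filter on low counts called JAG1, HEY1 and NRARP (3 of 10, and 10.7% of all genes). Without 7.5 µM replicate 1 edgeR called JAG1, NOTCH1 and HEY1 (11.3% of all genes), and without 7.5 µM replicate 2 it called NRARP (29.1%). For 5 µM against 0.7 µM NOTCH2 was called without either 7.5 µM library, where 4.39% and 4.23% of all genes were. For 7.5 µM against 5 µM, leaving out a 7.5 µM library leaves that arm with 1 library, so only log2 changes are given. Without 7.5 µM replicate 1 that of JAG1 was -1.55 and that of NOTCH1 -1.15. Without 7.5 µM replicate 2 that of NOTCH2 was 0.68 and that of NRARP 0.94.

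**Figure D4:**
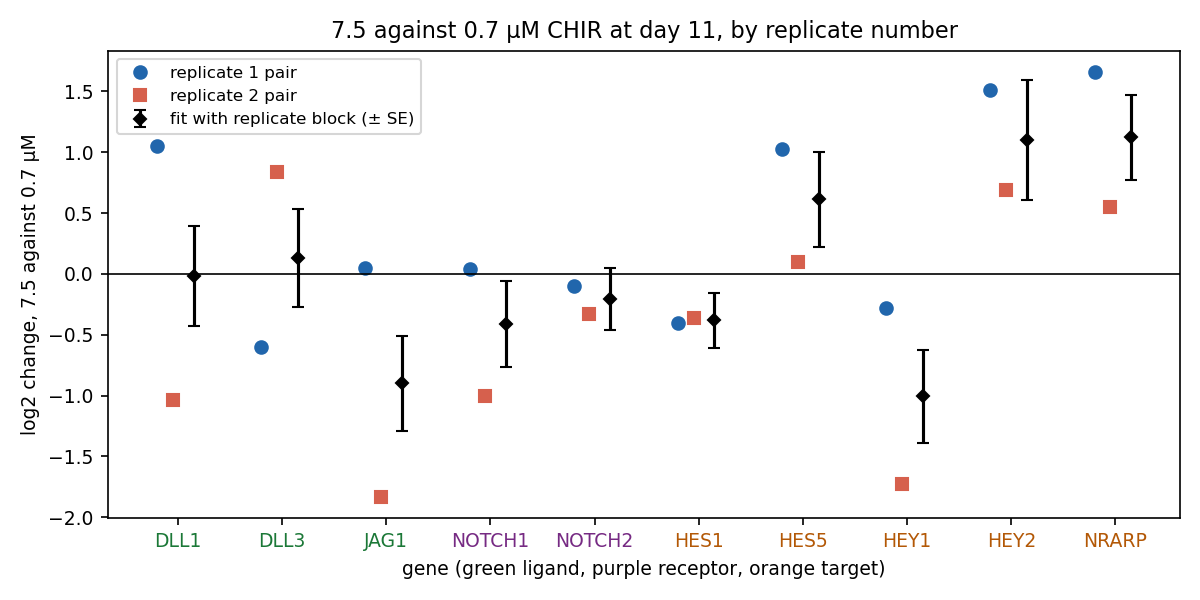
Log2 change of 7.5 µM against 0.7 µM CHIR at day 11 (y axis) for the 10 Notch genes (x axis), as the ratio within replicate 1 (blue circles), within replicate 2 (red squares) and as fitted with the replicate block (black, ± SE). NRARP, HEY2 and HES5 lie above 0 and HEY1, HES1 and NOTCH2 below it in both replicates, while DLL1, DLL3, JAG1 and NOTCH1 have replicates on opposite sides of 0.

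In the wider list, 3 of 41 genes fell at 7.5 µM against 0.7 µM with the replicate block and 0 without it, and none rose, where 10.5% of all genes passed with the block. MFNG fell by 2.20 ± 0.279 on the log2 scale (SE; edgeR adjusted p = 0.00177, and 0.209 without the block). HES7, at 8.33 and 23.8 CPM with 0.7 µM and at 1.75 and 1.37 with 7.5 µM, fell by 3.43 ± 0.456 (SE; edgeR adjusted p = 0.00226, and 0.209 without the block). HES4, at 10.2 and 6.68 CPM against 4.07 and 3.15, fell by 1.38 ± 0.326 (SE; edgeR adjusted p = 0.0253, and 0.424 without the block). The libraries of the arms did not overlap for any of these 3. The same 3 also fell against 5 µM with the block, by 2.10 ± 0.278, 3.07 ± 0.447 and 1.90 ± 0.330, a comparison that shares the 7.5 µM libraries. The counts of 3 ranged from 2 to 12 when single libraries were left out of the comparison with 0.7 µM (12 without 7.5 µM replicate 2, 8 without 7.5 µM replicate 1), and from 0 to 11 in that with 5 µM (0 without 5 µM replicate 2, 1 without 5 µM replicate 1, 11 without 7.5 µM replicate 2). They were 5 and 6 with DESeq2, and 7 and 9 without the filter. The calls over all genes moved with them: against 0.7 µM from 3.83% to 29.1% with single libraries left out, 16.1% with DESeq2 and 10.7% without the filter, and against 5 µM from 0.0258% to 30.2%, 14.8% and 9.86%.

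Between the replicate numbers 22 of the 41 passed, 14 higher and 8 lower in replicate 2, a share close to the 55.6% of all genes. MIB1, the ubiquitin ligase that lets ligands be taken up and signal, was at 28.8 to 135 CPM in replicate 1 and at 207 to 240 CPM in replicate 2. HES6, which opposes HES1, was at 14.2 to 27.1 CPM in replicate 1 and at 1.54 to 4.96 CPM in replicate 2. MIB1 changed by 2.11 ± 0.307 and HES6 by -3.0 ± 0.338 on the log2 scale (SE; edgeR adjusted p = 0.000653 and 0.000383).

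Genes that Notch targets are known to repress and genes of the cell cycle were read in the same fit. NEUROG1, a proneural factor, had 209 counts in the 7.5 µM libraries (3.98 and 2.34 CPM) and 3 counts in the 0.7 µM libraries, a ratio of 69.2 (95% interval 23.3 to 338, counting error only). NEUROD4, another proneural gene, rose by 2.11 ± 0.543 with the replicate block (SE; edgeR adjusted p = 0.0351). For NEUROG2 the difference was 1.24 ± 0.617, and it did not pass. The proliferation marker MKI67 was at 72.5 and 110 CPM with 0.7 µM and at 276 and 390 CPM with 7.5 µM, and rose by 1.71 ± 0.236 (SE; edgeR adjusted p = 0.00258). CCNB1 and TOP2A, also of the cell cycle, rose by 1.58 ± 0.254 and 1.11 ± 0.284. The part of these differences in the values of the Notch genes was not tested.

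The genes whose pattern was most like each Notch gene were found from Pearson's r of log2(CPM + 1) among genes of at least 5 CPM on average, as a description over libraries that share stage, dose and replicate differences. Over the 10 hPSC and day 11 libraries, HES1 was most like LIX1 (r = 0.994), FOXA2 (0.990), the floor plate transcription factor, and BMP7 (0.987). DLL1 was most like PLK2 (0.988), HES5 like PHC2 (0.978), HEY1 like ZNF706 (0.979), HEY2 like TERF1 (0.992) and NRARP like ACTN1 (0.987). JAG1 was most like ATP6V1A (0.991), NOTCH1 like S1PR2 (0.958), NOTCH2 like TARBP1 (0.977) and DLL3 like CTSH (0.955). Over the 8 day 11 libraries the nearest genes were others, except for DLL1, whose nearest gene was again PLK2 (0.971). NRARP was then nearest to ADH5P4 and PAICS (0.992 each), HEY1 to ARMCX1 (0.941) and HES5 to PSMA6 (0.947). Among the Notch genes themselves over the 10 libraries, HES1 and HEY2 ran against each other (r = -0.97), HES1 ran with HES5 (0.89), and HEY2 with NRARP (0.90). Over the 8 day 11 libraries alone these values were -0.69, 0.01 and 0.76, so HES1 and HES5 did not run together within day 11.

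The day 16 and day 30 tables stood apart from the others and are not read as gene levels. They held 5.41 to 6.34 M gene counts per library. Of the counts on the 13 mitochondrial protein genes, 36.9% to 61.4% fell on MT-ND6, the one such gene read from the other strand, where it was 0.09% to 0.44% in the hPSC and day 11 libraries. GAPDH stood at 71 to 290 CPM, against 2304 to 9966 CPM before, and SOX2 was at 0 in all 4. The strand setting of library or counting is not given in the sources used here, so whether these tables count the opposite strand was not tested further. In them HES1 had 5.37 and 2.59 CPM at day 16 and 0 and 0.37 CPM at day 30, and HES5 was at 0 in all 4. All 6 Notch genes that passed the filter had lower mean CPM at day 30 than at day 16, and 5 of them passed the test (11% of all genes tested did), 3 with the replicate block, and 0 without either day 30 library.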

How the data were processed

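The authors deposited read counts per gene, which were used unchanged. The submitters' processing notes list the hg19 genome, STAR 2.4.2a, HTSeq 0.5.3, featureCounts 1.4.2 and DESeq2 1.12.4. How the libraries were made, whether they kept strand and how reads were assigned is not given in the sources used here. Reads assigned to no gene stood in 5 summary entries, which were dropped before scaling and made up 37.41% to 44.33% of the counts in tables up to day 11.

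Counts were tested with edgeR 4.0.16 in R 4.3.3 (robust quasi-likelihood F-tests after filterByExpr and TMM scaling, Benjamini-Hochberg adjustment over all genes tested, threshold 0.05). The standard error is the size of the log2 change divided by the square root of F. The dose comparisons and the replicate comparison used the 8 day 11 libraries (18709 genes), those with hPSC these and the hPSC libraries (19672 genes), and day 30 against day 16 its 4 libraries (15435 genes). Alternatives were the replicate block, median-of-ratios size factors, DESeq2 1.42.0, no filter on low counts, only the libraries compared, and leaving out each library. In the comparisons with hPSC the block covered day 11 only, with replicate 1 as its reference level, so it compares that level with hPSC. The fitting was tested on simulated data.

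At day 11 the replicate numbers pair the libraries: the sample descriptions carry 1 code for all replicate 1 and another for all replicate 2 libraries, and deviations correlated at 0.66 to 0.87. The hPSC codes differ from these, and correlations with hPSC were -0.18 to -0.11. Day 16 and day 30 share an experiment code within a number but correlated at -0.22. Ratios within a replicate used a pseudocount of 0.1 CPM. Exon lengths came from GENCODE by gene identifier. The 10 genes are named in every comparison. Genes of the wider list are named where they passed against hPSC, in the slope or at 7.5 µM against 0.7 µM, and MIB1 and HES6 were singled out after their values were seen. The members and lists were chosen with earlier results of these data known. The labels' day 16 is used where the series text has day 20.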

Additional observations from a re-analysis of the deposited data

Results flagged for a closer look

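For 7.5 µM against 0.7 µM CHIR, 4 of the 10 Notch genes moved in opposite directions in the 2 replicate numbers. The log2 ratio of DLL1 was 1.05 in replicate 1 and -1.04 in replicate 2, and that of DLL3 was -0.6 and 0.84. The ratio of JAG1 was 0.05 in replicate 1 and -1.83 in replicate 2, and that of NOTCH1 was 0.04 and -1.0. Each ratio compares 1 library with 1 library, so the difference between the replicate numbers was not tested, and for JAG1 and NOTCH1 the replicate 1 ratio was close to 0.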

How the results depend on the processing

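With the replicate block, the number of Notch genes that passed for 7.5 µM against 0.7 µM was 0, and it was 2 with DESeq2, 3 without the filter on low counts and 0 to 3 when single libraries were left out. It ranged from 0 to 1 for 5 µM against 0.7 µM and from 0 to 2 for 7.5 µM against 5 µM with single libraries left out. Against hPSC at 0.7 µM it was 2 with only the libraries compared and 0 to 6 with single libraries left out, and at 7.5 µM it was 6 with only the libraries compared, 6 with the replicate block within day 11 and 1 to 5 with single libraries left out. For day 30 against day 16 it was 3 with the replicate block and 0 to 6 with single libraries left out. Over all genes, 1967 (10.5%) passed for 7.5 µM against 0.7 µM with the block and 0 without it. With the block 3006 (16.1%) passed with DESeq2 and 3391 (10.7%) without the filter. Against hPSC with only the libraries compared, 6.3% of all genes passed at 0.7 µM and 29.3% at 7.5 µM. With the replicate block within day 11, which sets the replicate 1 level of an arm against hPSC, these shares were 56% and 46.7%. For day 30 against day 16 with the replicate block the share was 6.91%. No Notch gene that passed changed sign under any alternative run, while 27 of 50 dose changes without the block and 16 of 50 with it did so at least once. In the blocked comparison of 7.5 µM with 0.7 µM, DLL1 was at 0.00946 without the filter and at -0.77 to 0.77 with single libraries left out, DLL3 at -0.049 with no replicate block and at -0.46 to 0.62, and NOTCH1 at -1.15 to 0.079. Against hPSC at 7.5 µM with the replicate block within day 11, JAG1 was at -0.45, NOTCH1 at -0.030 and NOTCH2 at -0.00886. These values are for the replicate 1 level at 7.5 µM and not for the mean of the arm. With single libraries left out, JAG1 was at -0.12 to 2.49 at 0.7 µM and -0.0657 to 0.66 at 7.5 µM, and DLL1 at -0.14 to 0.59 for replicate 2 against replicate 1. The cause of the other shifts was not tested. Groups of 2 libraries limit every comparison, and HES5 and HEY2 rest on few counts.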
